A study of Mus musculus with 11 samples.

Results

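Interferon-stimulated antiviral genes are the genes that cells switch on when interferon reaches their receptors. A set of 33 such genes was taken by name from a gene table of 55487 entries, and all 33 were found. The table comes from bulk RNA sequencing of 11 libraries around MC38, a mouse colon carcinoma cell line. The tumour cells carried either a control short hairpin RNA (shNC, genotype given as WT) or a hairpin against Fgf21 (shFgf21), which codes for a secreted metabolic hormone, and the stated aim was to learn how tumour FGF21 affects T cells. The first kind of sample is given as T cells sorted from such tumours (n = 3 in shNC and n = 2 in shFgf21). The other is tumour libraries (replicates 1, 2 and 6 in shNC and replicates 1, 2 and 3 in shFgf21). Every sample is labelled as tumour tissue, and the tumour libraries are further labelled as the MC38 line and as mesenchymal cells. The sources used here do not state the number of hairpins, the age or strain of the mice or the sort markers.

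Several limits bear on every value. Titles of sorted libraries string several numbers together, and the labels do not say whether these are pooled animals. The genotype label of sorted shFgf21 replicate 2 names FGF22 where its partner has FGF21; it was kept with its partner by its title. Since no label ties a replicate to its own animal, a p-value here reflects only how much libraries of a group vary, and that variation may be technical. Library totals ran from 14944013 to 19099350 counts. Fgf21 itself had 0 counts in all 5 sorted libraries, 0, 2 and 1 counts in the shNC tumour libraries and 0 in each shFgf21 tumour library, so the knockdown could not be checked at this depth. All 18 T cell markers had counts in the sorted libraries, with summed levels of 476 to 900.1 CPM (counts per 1000000 counts of the scaled library) in shNC and 560 to 667 CPM in shFgf21. The 12 macrophage and monocyte markers summed to far more in the same libraries, 11480 to 14371 CPM in shNC and 18288 to 19770 CPM in shFgf21. Values of the sorted libraries therefore cannot be read as those of T cells alone. Cd3e, Cd2, Cd8b1 and Skap1 were among the T cell markers without counts in the tumour libraries, and there the macrophage markers summed to 34.4 to 49.5 CPM. A list of 8 tumour line and stromal markers was high in both kinds of sample. It summed to 12980 to 14230 CPM in sorted shNC and 13489 to 15330 CPM in sorted shFgf21. In tumours the sums were 16363 to 18231 CPM in shNC and 15284 to 17433 CPM in shFgf21. In bulk samples such as these, fewer cells of a type and less RNA per cell cannot be told apart.

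Type I interferons bind the receptor formed by Ifnar1 and Ifnar2, whose kinases Jak1 and Tyk2 phosphorylate Stat2. Together with Irf9 it forms part of a complex that binds interferon-stimulated response elements (ISREs) near the start of target genes. Interferon gamma uses another receptor and acts mainly through gamma-activated sites (GAS), and both arms share some targets. The products sense viral RNA and DNA, block viral translation and budding, degrade RNA and feed back on the pathway, and in tumours they are commonly used as a readout of interferon exposure.

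Start sites were available for 24 of the 33 genes in RefSeq (GRCm38.p6), as windows from 250 bases before to 50 bases after the annotated start. Both strands were searched for the core of an ISRE (GAAA, any 2 bases, GAAA) and for the core of a GAS (TTC, any 3 bases, GAA). The ISRE-type core was present in 13 of the 24 genes (54.2%), against 3.99% of 27025 genes with a window of the same length. The GAS-type core was present in 5 of 24 (20.8%), against 9.55% of all genes. Related lists were searched in the same way. Among 46 other interferon-induced genes the shares were 54.3% for the ISRE-type and 8.7% for the GAS-type core, and among 16 genes weighted to interferon gamma they were 56.2% and 43.8%. A match describes the letters in the window and not a bound site. Overlapping matches were counted separately, and the windows of 6 of the 13 genes of the set with an ISRE-type core are printed as examples of single, overlapping and separate cores. Capitals mark the ISRE-type cores, which read as TTTC, 2 bases and TTTC where the match is on the opposite strand.
Ddx60, chr8:61927837-61928136, plus strand: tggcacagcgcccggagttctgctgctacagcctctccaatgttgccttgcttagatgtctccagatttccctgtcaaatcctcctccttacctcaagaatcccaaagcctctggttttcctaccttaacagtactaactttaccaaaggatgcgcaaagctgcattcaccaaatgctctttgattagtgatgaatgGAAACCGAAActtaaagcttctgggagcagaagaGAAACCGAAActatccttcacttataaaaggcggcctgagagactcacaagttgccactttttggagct
Stat2, chr10:128270248-128270547, plus strand: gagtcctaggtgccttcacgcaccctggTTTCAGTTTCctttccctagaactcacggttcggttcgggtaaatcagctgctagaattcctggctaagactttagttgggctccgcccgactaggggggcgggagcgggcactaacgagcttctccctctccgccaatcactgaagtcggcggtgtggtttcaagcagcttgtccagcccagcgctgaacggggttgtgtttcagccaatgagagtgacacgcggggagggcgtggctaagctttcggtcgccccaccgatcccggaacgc
Isg15, chr4:156200769-156201068, minus strand: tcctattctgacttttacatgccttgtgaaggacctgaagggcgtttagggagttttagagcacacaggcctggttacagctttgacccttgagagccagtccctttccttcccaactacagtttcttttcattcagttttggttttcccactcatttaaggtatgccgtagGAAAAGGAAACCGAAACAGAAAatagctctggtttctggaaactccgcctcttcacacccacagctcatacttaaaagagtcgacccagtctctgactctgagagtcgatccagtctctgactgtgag
Bst2, chr8:71537423-71537722, minus strand: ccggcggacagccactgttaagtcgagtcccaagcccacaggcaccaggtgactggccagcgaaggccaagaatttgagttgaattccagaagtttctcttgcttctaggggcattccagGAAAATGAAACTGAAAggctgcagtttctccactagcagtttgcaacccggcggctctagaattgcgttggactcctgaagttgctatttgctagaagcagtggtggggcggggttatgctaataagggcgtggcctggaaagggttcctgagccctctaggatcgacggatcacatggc
Oas1a, chr5:120907476-120907775, minus strand: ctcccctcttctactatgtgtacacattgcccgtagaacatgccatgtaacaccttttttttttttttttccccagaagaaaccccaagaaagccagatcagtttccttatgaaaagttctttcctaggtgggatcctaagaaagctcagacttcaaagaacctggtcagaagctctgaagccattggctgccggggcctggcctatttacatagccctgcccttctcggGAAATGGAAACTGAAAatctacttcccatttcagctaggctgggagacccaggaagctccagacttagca
Rsad2, chr12:26456403-26456702, minus strand: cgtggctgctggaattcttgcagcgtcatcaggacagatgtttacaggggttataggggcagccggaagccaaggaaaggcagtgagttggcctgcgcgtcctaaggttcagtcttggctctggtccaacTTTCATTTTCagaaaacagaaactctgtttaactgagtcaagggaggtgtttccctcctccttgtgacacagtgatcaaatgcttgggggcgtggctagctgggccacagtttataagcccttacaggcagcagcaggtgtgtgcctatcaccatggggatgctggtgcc

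The cores lay at different distances from the start. In Isg15 3 overlapping matches form 1 run centred 73, 67 and 61 bases before the start, and in Bst2 and Oas1a 2 matches overlap in the same way. Ddx60 holds 2 separate copies of the same 10 letters, 48 and 14 bases before the start. The single matches in Stat2 and Rsad2 lie on the opposite strand, 217 and 115 bases before the start. No ISRE-type core was found in the windows of Oasl1, Oasl2, Irf7, Irf9 or Samd9l.

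**Figure D1:**
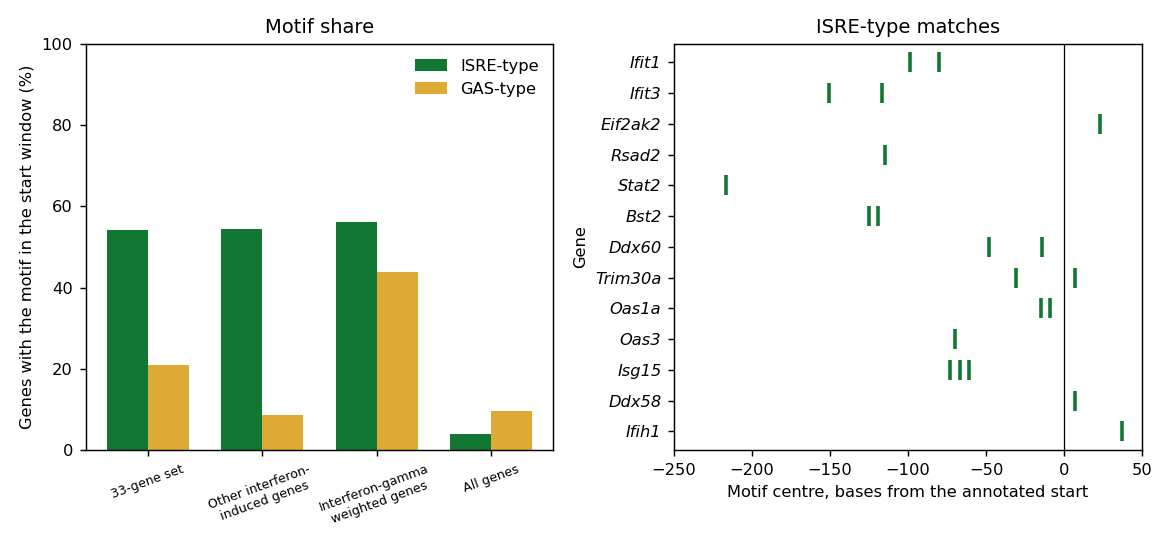
Left, the share of genes (%) whose 300-base start window holds an ISRE-type or GAS-type core, for the 33-gene set (24 with a window), 2 related lists and all genes. Right, the centre of each ISRE-type match in bases from the annotated start for the 13 genes that hold one; most matches lie before the start, and those of Eif2ak2, Ddx58 and Ifih1 lie after it. Trim30a has 2 windows, with 1 match in each, before the start in one and after it in the other.

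All 33 genes were expressed in every library. The median gene stood between 27.8 CPM in tumour shFgf21 replicate 3 and 71.3 CPM in sorted shFgf21 replicate 2. Bst2, which codes for tetherin and holds budding virus at the cell surface, was the highest gene on the CPM scale in all 11 libraries. Lowest was Ifi44 in the 5 sorted libraries and Oasl1 in the 6 tumour libraries. Genes of different length were ranked on the authors' FPKM values. In the shNC sorted libraries the mean level was 193 ± 29.02 FPKM for Bst2, 76.6 ± 15.1 for Isg15, 40.3 ± 0.338 for Ifit3, 30.7 ± 7.73 for Ifit1 and 29.3 ± 2.40 for Oas1a (SD, n = 3). Ifit1 and Oas1a, neighbours in that order, differed by less than the spread between libraries. At the other end stood Ddx60 at 3.90 ± 0.164 FPKM and Ifi44 at 2.22 ± 0.556 FPKM. In the shNC tumour libraries Bst2 and Isg15 again led, at 163 ± 42.9 and 44.97 ± 10.96 FPKM, and the lowest genes were Mx1 at 1.81 ± 0.722 and Oasl1 at 1.08 ± 0.281 FPKM.

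**Figure D2:**
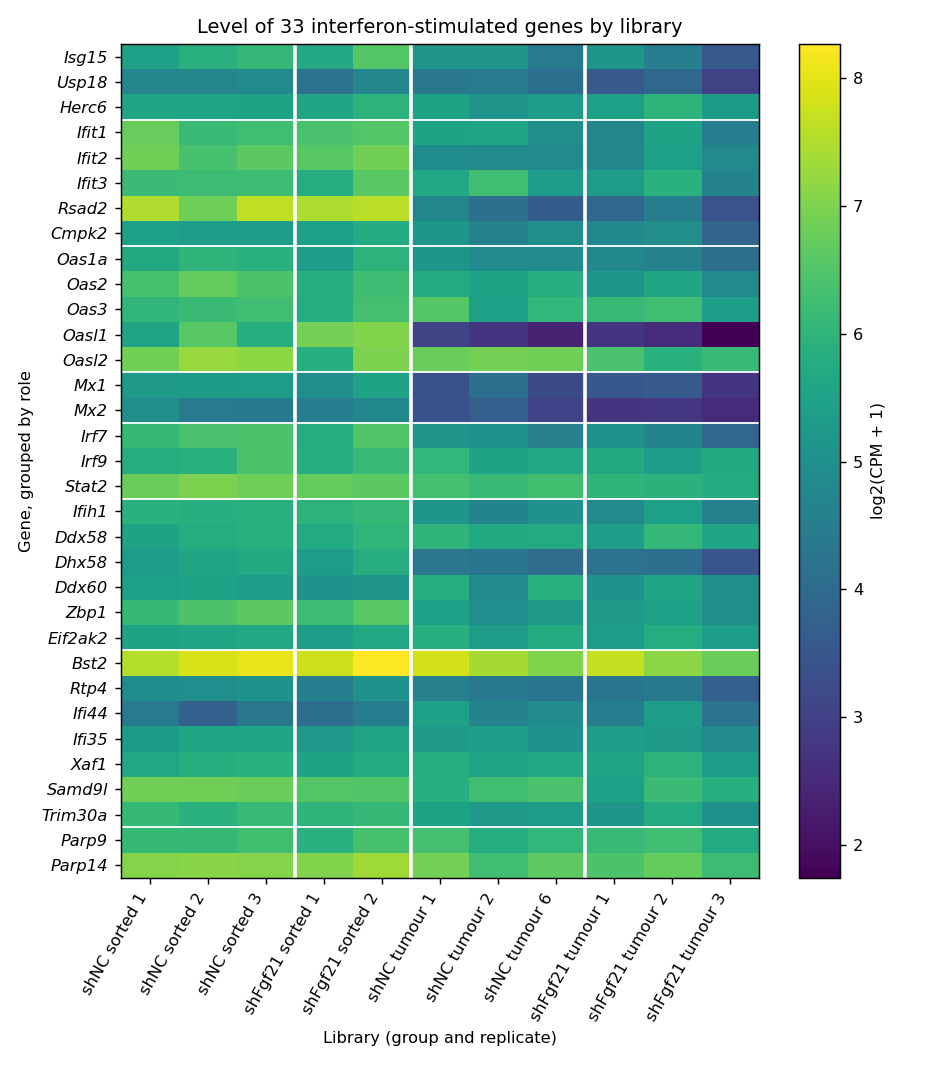
Level of each of the 33 genes as log2(CPM + 1) in each of the 11 libraries, with genes grouped by role and libraries by group. The Bst2 row is bright in every library, and the Oasl1, Rsad2, Mx1 and Mx2 rows are darker in the 6 tumour libraries than in the 5 sorted ones.

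Knockdown of Fgf21 in the tumour cells came without an edgeR call for any of the 33 genes in sorted or tumour libraries. DESeq2 called Oasl1 in the sorted and Oasl2 in the tumour libraries. In the sorted libraries the set was split, 15 genes higher and 18 lower in shFgf21, with a median log2 fold change of -0.023 beside -0.010 over all genes tested. In the tumour libraries 28 of the 33 were lower and 5 higher, with a median of -0.26 beside -0.0071 over all genes, and no member passed the test. Over all genes tested, 48.2% were higher in the sorted and 48.8% in the tumour contrast. The 5 genes higher in the tumour contrast were Herc6, Ifit2, Ifih1, Parp9 and Zbp1. Between the contrasts, 16 genes were lower in both, 3 were higher in both (Ifit2, Ifih1 and Herc6), 12 were higher in sorted cells and lower in tumours, and 2 (Zbp1 and Parp9) the reverse.

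The test was edgeR's quasi-likelihood F-test, two-sided, with Benjamini-Hochberg adjustment over all genes tested and a threshold of 0.05. In the sorted libraries 0 of 33 genes passed, where 0.079% of 16454 genes did. Unadjusted p was under 0.05 for 4 of the 33, Oasl1, Samd9l, Ddx60 and Oas2, a share near the 11.2% of all genes tested. DESeq2 on the same counts called 1 of the 33, Oasl1, where it called 1.5% of all genes, and voom with quality weights called 0. In the tumour libraries 0 of 33 passed, where 0.0334% of 14950 genes did, and unadjusted p was under 0.05 for 5 of 33, Oasl2, Mx2, Usp18, Stat2 and Oas1a, where it was for 6.22% of all genes. There DESeq2 called 1 of the 33, Oasl2, where it called 0.769% of all genes, and voom called 0.

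The libraries of a group did not move together. Sorted shFgf21 replicate 2 was above replicate 1 for 31 of 33 genes, with a median ratio of 1.29. Leaving out replicate 1 of that group gave 26 genes up and a median of 0.16, and leaving out replicate 2, whose genotype label has FGF22, gave 28 genes down and a median of -0.23. Tumour shFgf21 replicate 3 was the lowest of the 6 tumour libraries for 24 of the 33 genes, and tumour shNC replicate 1 was the highest for 16. Without tumour shFgf21 replicate 3 the median in tumours was -0.046, with 22 genes down and 11 up; without tumour shNC replicate 1 it was -0.16, with 19 down. Summed over the 33 genes, the levels were 2298, 2417 and 2553 CPM in sorted shNC, 2133 and 2755 CPM in sorted shFgf21, 1742, 1426 and 1448 CPM in tumour shNC and 1368, 1529 and 1044 CPM in tumour shFgf21. On this sum the groups overlapped in both contrasts.

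Some genes did not overlap between groups. In sorted cells Oasl1, Ifih1 and Herc6 were higher in both shFgf21 libraries than in any shNC library, 3 of 33 where 16.2% of all genes tested were, and Oas2, Stat2, Ddx60 and Samd9l were lower, 4 of 33 where 13.5% were. In tumours Mx2, Oas1a, Oasl2, Stat2 and Usp18 were lower in all 3 shFgf21 libraries, 5 of 33 where 6.41% of all genes were. No gene of the set was higher without overlap in tumours, where 5.24% of all genes were. Stat2 was the member without overlap, and lower, in both contrasts, and the share of all genes that were so was not computed.

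**Figure D3:**
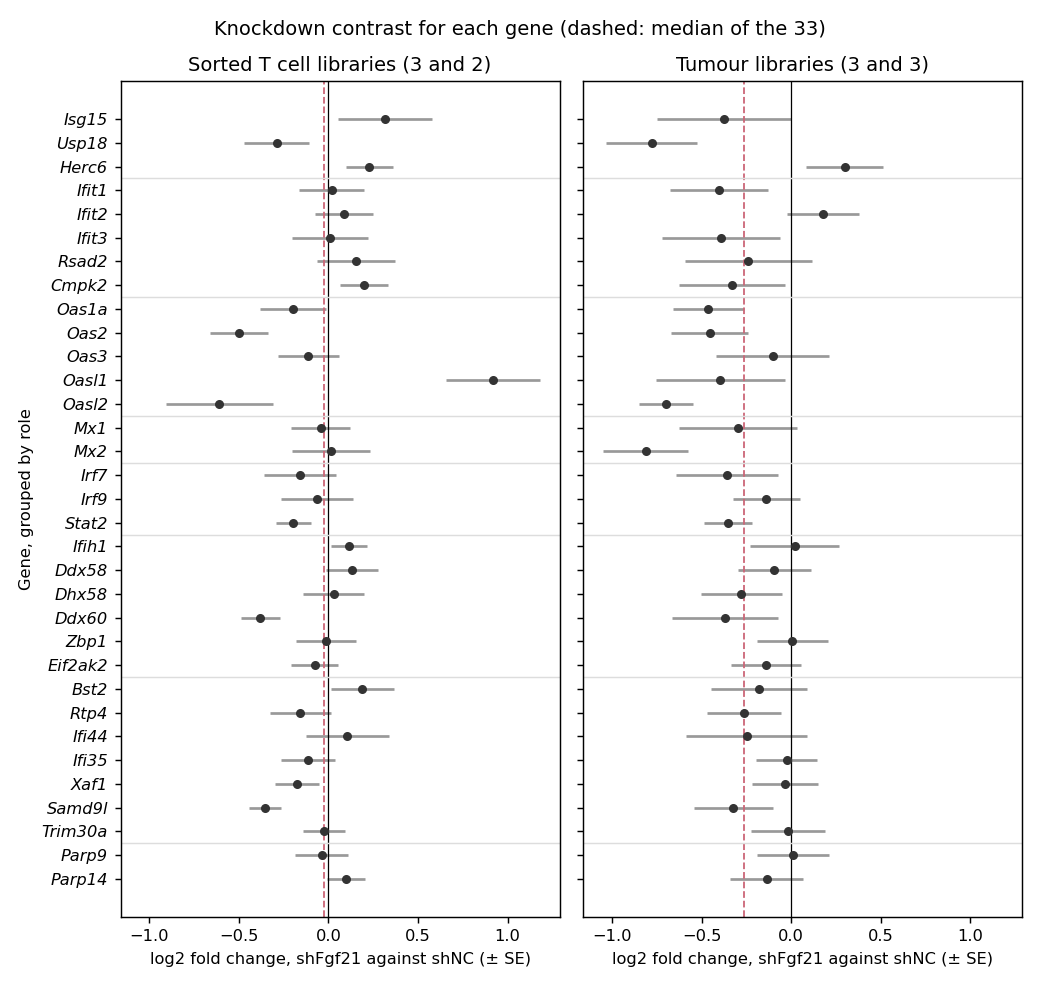
Log2 fold change of shFgf21 against shNC for each gene (points, ± SE from the edgeR fit) in the sorted libraries (left, 3 against 2) and the tumour libraries (right, 3 against 3); the dashed line is the median of the 33. The medians are -0.023 in sorted cells and -0.26 in tumours, and Oasl1 at 0.92 in sorted cells is the point farthest from 0 on either side.

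The ISG15 system consists of Isg15 (chr4:156199455-156200796, mm10), a ubiquitin-like protein that is attached to other proteins, Herc6, the ligase that attaches it in mice, and Usp18, the protease that removes it and also damps the type I receptor. Isg15 was at 43.8, 58.01 and 67.4 CPM in sorted shNC and at 49.99 and 92.03 CPM in sorted shFgf21. In tumours it was at 34.3, 34.5 and 21.03 CPM in shNC and 35.5, 22.2 and 10.99 CPM in shFgf21. The groups overlapped in both kinds of sample, and the spread of Isg15 in shFgf21 tumours, 3.23-fold from lowest to highest, was the widest of any member in that group. Its log2 fold change was 0.32 ± 0.26 in sorted cells and -0.38 ± 0.37 in tumours (edgeR, adjusted p = 0.696 and 0.932). Usp18 was at 25.4, 25.2 and 28.2 CPM in sorted shNC against 17.4 and 26.1 CPM in shFgf21, and at 19.4, 20.5 and 16.01 CPM in tumour shNC against 10.9, 14.3 and 7.16 CPM in shFgf21. Every shFgf21 tumour was below every shNC tumour for Usp18, with a log2 fold change of -0.78 ± 0.25 that did not pass adjustment (edgeR, adjusted p = 0.667). Herc6 leaned the other way, with log2 fold changes of 0.23 ± 0.13 and 0.30 ± 0.21, and neither passed.

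The IFIT proteins bind foreign RNA and hold it from translation, and Rsad2 codes for viperin, which makes a nucleotide that stops viral RNA synthesis. Its neighbour on chromosome 12, Cmpk2, is a mitochondrial nucleotide kinase. Ifit1 (chr19:34640871-34650009) was at 107, 71.1 and 76.5 CPM in sorted shNC and 82.9 and 91.6 CPM in sorted shFgf21, and at 45.4, 46.4 and 30.6 CPM in tumour shNC and 25.8, 44.04 and 21.9 CPM in tumour shFgf21. Ifit3 was at 72.3, 74.00 and 74.1 CPM in sorted shNC and 53.98 and 95.7 CPM in sorted shFgf21, and at 48.5, 76.2 and 39.7 CPM in shNC tumours against 39.9, 59.5 and 24.4 CPM in shFgf21 tumours. For both genes the groups overlapped everywhere. Rsad2 (chr12:26442746-26456452) was at 180.0, 112 and 199 CPM in sorted shNC, 175 and 193 CPM in sorted shFgf21, 25.8, 16.6 and 11.7 CPM in tumour shNC and 14.1, 21.7 and 9.62 CPM in tumour shFgf21. All 5 genes of this group had a positive log2 fold change in sorted cells, from 0.011 for Ifit3 to 0.20 for Cmpk2, and 4 of 5 a negative one in tumours, from -0.24 for Rsad2 to -0.40 for Ifit1, and none passed the test. Of the 50-base stretches of the Ifit3 transcripts, 51.2% also occur in Ifit3b or another gene, so the counts of Ifit3 may include reads of its copy.

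The OAS family joins ATP into oligoadenylates that switch on the RNA-degrading enzyme RNase L. Oasl1 is an OAS-like protein without that activity which, in mice, limits the translation of Irf7. Oasl1 (chr5:114923240-114937915) was at 45.8, 93.8 and 55.2 CPM in sorted shNC and at 118 and 129 CPM in sorted shFgf21. Both shFgf21 libraries were above all 3 shNC libraries, one of which, at 93.8 CPM, was nearer to the shFgf21 pair than to its own partners. The log2 fold change was 0.92 ± 0.26, with an edgeR adjusted p of 0.295; it became a call with DESeq2 (adjusted p = 0.0429) and with edgeR when sorted shNC replicate 2, the highest of its group, was left out (adjusted p = 0.0476). Sorted shFgf21 libraries also had more macrophage marker RNA, 18288 to 19770 against 11480 to 14371 CPM, and the part of this in the Oasl1 difference was not tested. In tumours Oasl1 was low, at 7.41, 5.64 and 4.13 CPM in shNC and 5.61, 4.98 and 2.35 CPM in shFgf21, with a log2 fold change of -0.39 ± 0.36.

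The other OAS genes had negative log2 fold changes in both contrasts, and none passed in edgeR. Oasl2 (chr5:114896936-114912234) was at 118, 153 and 141 CPM in sorted shNC and 55.9 and 126 CPM in sorted shFgf21, where the pair differed 2.25-fold and overlapped the controls. In tumours Oasl2 was at 111, 119 and 117 CPM in the shNC group and at 83.5, 58.96 and 69.2 CPM in shFgf21, with the 3 controls close together and every shFgf21 library below them. Its tumour log2 fold change of -0.70 ± 0.15 did not pass in edgeR (adjusted p = 0.396) and passed in DESeq2 (adjusted p = 0.0207). Oas2 was at 81.3, 105 and 86.2 CPM in sorted shNC and 55.7 and 74.7 CPM in sorted shFgf21, a difference without overlap of -0.50 ± 0.16 on the log2 scale that did not pass (adjusted p = 0.337). In tumours Oas2 was at 52.2, 43.98 and 56.3 CPM in the shNC group and at 34.9, 47.9 and 27.8 CPM in shFgf21, with overlap. Oas1a was at 51.3, 62.6 and 59.5 CPM in sorted shNC, 40.1 and 61.8 CPM in sorted shFgf21, 35.6, 28.7 and 28.8 CPM in tumour shNC and 26.5, 23.8 and 16.8 CPM in tumour shFgf21. Only the tumour groups of Oas1a were apart, by -0.46 ± 0.20 (edgeR, adjusted p = 0.801), and 57.6% of its 50-base stretches also occur in Oas1g or another gene. Oas3 had log2 fold changes of -0.11 ± 0.17 and -0.10 ± 0.31.

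Mx1 and Mx2 code for GTPases that trap viral nucleoproteins; many laboratory mouse strains carry defective alleles, and the table types both genes as polymorphic pseudogenes. Mx1 was at 36.9, 38.4 and 38.9 CPM in sorted shNC, 30.3 and 44.4 CPM in sorted shFgf21, 9.29, 16.4 and 8.30 CPM in tumour shNC and 10.6, 11.2 and 5.67 CPM in tumour shFgf21. Mx2 (chr16:97535308-97560900) was at 30.6, 20.6 and 19.8 CPM in sorted shNC libraries against 21.7 and 26.8 CPM in sorted shFgf21 ones, which overlapped. In tumours Mx2 was at 9.42, 12.3 and 7.36 CPM in the shNC group and at 5.79, 5.83 and 4.75 CPM in shFgf21, all 3 below the lowest control. Its log2 fold change of -0.81 ± 0.24 was the most negative of the 33 in tumours and did not pass (edgeR, adjusted p = 0.598).

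Of the transcription factors, Stat2 and Irf9 belong to the complex that binds the ISRE, and Irf7 drives the interferon alpha genes. Stat2 (chr10:128270559-128292849) was at 109.5, 124 and 112 CPM in sorted shNC and 105 and 98.2 CPM in sorted shFgf21, and at 78.96, 69.7 and 77.8 CPM in tumour shNC and 62.3, 60.7 and 53.1 CPM in tumour shFgf21. It was lower without overlap in both, by small amounts, with log2 fold changes of -0.19 ± 0.10 and -0.35 ± 0.13 (edgeR, adjusted p = 0.516 and 0.744). Irf7 was at 68.5, 82.9 and 85.3 CPM in sorted shNC libraries against 54.1 and 88.9 CPM in sorted shFgf21 ones and at 34.6, 33.1 and 23.2 CPM in shNC tumours against 31.5, 24.9 and 13.9 CPM in shFgf21 tumours. Irf9 was at 54.1, 58.2 and 83.9 CPM in sorted shNC libraries against 55.2 and 71.3 CPM in sorted shFgf21 ones and at 65.3, 43.98 and 49.2 CPM in shNC tumours against 51.04, 40.7 and 51.4 CPM in shFgf21 tumours. Irf7 and Irf9 overlapped in both contrasts.

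The sensors detect viral nucleic acid. Ifih1 (MDA5) and Ddx58 (RIG-I) bind double-stranded RNA and signal, Dhx58 tunes both, Ddx60 is a helicase linked to RIG-I signalling, Zbp1 binds Z-form nucleic acid and can start necroptosis, and Eif2ak2 (PKR) stops translation on binding double-stranded RNA. Ddx60 (chr8:61928087-62038244) was at 42.2, 45.4 and 41.3 CPM in sorted shNC and at 33.1 and 33.7 CPM in sorted shFgf21, 2 tight groups without overlap. Its log2 fold change of -0.38 ± 0.11 did not pass (edgeR, adjusted p = 0.295); in tumours it was at 55.3, 28.03 and 58.2 CPM in shNC and 32.02, 46.4 and 30.9 CPM in shFgf21, with overlap. Zbp1 was at 68.2, 86.1 and 97.5 CPM in sorted shNC libraries against 73.3 and 94.6 CPM in sorted shFgf21 ones and at 43.4, 29.6 and 37.5 CPM in shNC tumours against 36.9, 43.2 and 30.2 CPM in shFgf21 tumours, and its 2 knockdown fold changes were the nearest to 0 of the group. Eif2ak2 was at 45.04, 46.8 and 50.3 CPM in sorted shNC libraries against 40.2 and 50.7 CPM in sorted shFgf21 ones and at 56.3, 38.8 and 53.5 CPM in shNC tumours against 39.5, 53.6 and 41.1 CPM in shFgf21 tumours. Its levels overlapped throughout. Ifih1, Ddx58 and Dhx58 had log2 fold changes of 0.12 ± 0.10, 0.13 ± 0.15 and 0.029 ± 0.17 in sorted cells and of 0.020 ± 0.25, -0.093 ± 0.20 and -0.28 ± 0.23 in tumours, none of them called.

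Among the remaining effectors, Samd9l, a restriction factor that also restrains cell growth, had the smallest sorted p of the set. Samd9l (chr6:3372257-3399572) was at 114, 115 and 110.5 CPM in sorted shNC and at 90.5 and 89.1 CPM in sorted shFgf21. The groups were tight and did not overlap, with a log2 fold change of -0.35 ± 0.089 that did not pass (edgeR, adjusted p = 0.257); in tumours it was at 56.7, 75.6 and 82.7 CPM in shNC and 42.05, 72.6 and 56.1 CPM in shFgf21, with overlap. Bst2 (chr8:71534255-71537456) was at 187, 235 and 261 CPM in sorted shNC, 218 and 307 CPM in sorted shFgf21, 229, 166 and 129 CPM in tumour shNC and 208, 141 and 110.4 CPM in tumour shFgf21, overlapping in both contrasts. The other members of this group, Rtp4, Ifi44, Ifi35, Xaf1 and Trim30a, had log2 fold changes between -0.17 and 0.11 in sorted cells and between -0.26 and -0.017 in tumours. The mono-ADP-ribosyltransferase family members Parp9 and Parp14 lay between -0.14 and 0.097 over both contrasts. Annotated exons of other genes overlap 16.8% of the exonic bases of Ifi35, 13.9% of Rtp4, 13.7% of Herc6 and 9.4% of Parp9. The overlapping exons lie on the same strand for Rtp4 and Herc6 and on the opposite strand for Ifi35 and Parp9, and how the authors' counting assigned reads there is not given in the sources used here.

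An interaction test over all 11 libraries asked whether the knockdown contrast differed between sorted cells and tumours. No member passed in edgeR, where 0.00577% of 17327 genes did, and DESeq2, which called 0.19% of all genes, and voom also called 0 of the 33. The median difference, sorted minus tumour, was 0.17 on the log2 scale. Unadjusted p was under 0.05 for 2 of the 33, where it was for 4.77% of all genes. These were Oasl1 with a difference of 1.32 ± 0.48 and Mx2 with 0.84 ± 0.34, and neither held after adjustment (adjusted p = 0.99997 for both).

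The larger contrast lay between kinds of sample. In the shNC libraries 18 of the 33 genes were higher in sorted cells than in tumours, where 19.1% of 16104 genes tested were higher, and 1 was lower, Ifi44, where 11.9% were. In the shFgf21 libraries 21 were higher, where 22.7% of 16229 genes were, and 0 lower, where 13.1% were; there 23 of the 33 had an unadjusted p under 0.05, all higher, where 26.8% of all genes had one and were higher. DESeq2 called 21 of the 33 in the shFgf21 libraries, where it called 37.9% of all genes in either direction. The comparisons share no library. All 18 genes of the first were among the 21 of the second (100% of the one and 85.7% of the other). The same overlap over all genes called was not computed. Bst2, Cmpk2 and Parp14 were called in the shFgf21 libraries without a test of whether the contrast differed. The median log2 difference was 0.58 in shNC and 0.80 in shFgf21, beside -0.018 and 0.013 over all genes. Related lists shared this direction in shNC. Called higher were 13 of 18 nucleic acid sensing genes (median 1.08) and 10 of 15 interferon receptor and signalling genes (0.63). So were 25 of 54 other interferon-induced genes (0.61, with 4 called lower) and 9 of 22 genes weighted to interferon gamma (0.35). Without sorted shFgf21 replicate 2 the second comparison called 9 genes.

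The genes farthest apart were Oasl1 and Rsad2. Oasl1 was at 45.8, 93.8 and 55.2 CPM in sorted shNC against 7.41, 5.64 and 4.13 CPM in tumour shNC, a log2 difference of 3.51 ± 0.32 (edgeR, adjusted p = 1.07e-04), and at 4.85 ± 0.31 in the shFgf21 libraries (adjusted p = 6.77e-06). Rsad2 differed by 3.19 ± 0.33 in shNC (adjusted p = 2.05e-04) and 3.61 ± 0.29 in shFgf21 (adjusted p = 2.78e-05). In shNC, Ifit2 followed at 1.79 ± 0.15, Mx1 at 1.75 ± 0.24, Irf7 at 1.38 ± 0.17, Dhx58 at 1.36 ± 0.14, Mx2 at 1.29 ± 0.25 and Zbp1 at 1.18 ± 0.19, all called. Ifi44 went the other way, with 20.05, 12.7 and 19.5 CPM in sorted shNC against 43.4, 24.5 and 28.5 CPM in tumour shNC, a log2 difference of -0.88 ± 0.27 (adjusted p = 0.0374); in shFgf21 the difference was -0.49 ± 0.35 and not called. The 12 genes called higher in neither comparison were Ddx58, Ddx60, Eif2ak2, Herc6, Ifi35, Ifi44, Ifit3, Irf9, Oas3, Oasl2, Parp9 and Xaf1. Within the OAS family Oasl1, Oas1a and Oas2 were called higher in sorted cells in both comparisons, and Oas3 and Oasl2 in neither. Macrophage marker RNA differed between the same libraries by far more (11480 to 19770 CPM in sorted cells, 34.4 to 49.5 CPM in tumours), as did T cell marker RNA (476 to 900.1 against 36.2 to 50.6 CPM), and the part of cell type in these differences was not tested.

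**Figure D4:**
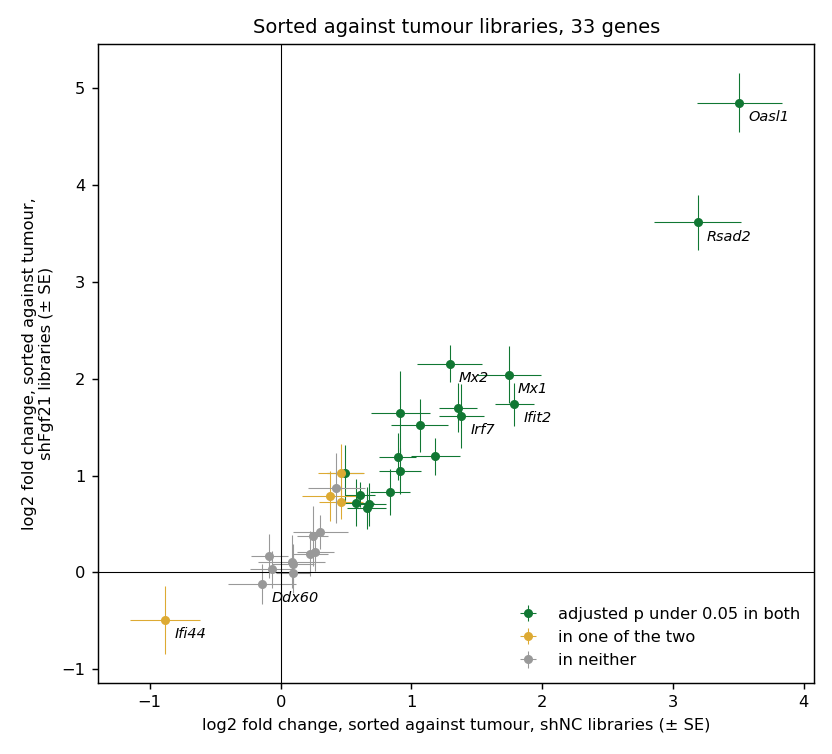
Log2 difference between sorted and tumour libraries (± SE, edgeR) for the 33 genes, in shNC (x axis, 3 against 3) and in shFgf21 (y axis, 2 against 3), coloured by whether the adjusted p was under 0.05. Oasl1 and Rsad2 lie far to the upper right, and Ifi44 is the gene lowest on both axes.

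The ligands of the pathway were looked up in the same table. Of 21 interferon genes, 8 had no count in any library. Ifnb1, the gene for interferon beta, was at 37.8, 30.00 and 30.4 CPM in sorted shNC and at 34.5 and 27.4 CPM in sorted shFgf21, overlapping. It had 0 counts in all 6 tumour libraries, which allows at most 0.147 to 0.195 CPM there (3 counts of the scaled library, counting error only). Ifng, the gene for interferon gamma, was at 96.1, 95.4 and 35.02 CPM in sorted shNC and at 25.6 and 33.9 CPM in sorted shFgf21, and at most 0.195 CPM in any tumour library. One sorted shNC library lay close to the shFgf21 pair, and the log2 fold change of Ifng was -1.36 ± 0.41 (edgeR, adjusted p = 0.313). In the same libraries 6 other cytotoxic genes summed to 390.2 to 492 CPM in shNC and 211 to 255 CPM in shFgf21, and 6 NK cell markers to 23.5 to 40.4 CPM and 17.1 to 21.8 CPM. Neither sum overlapped between the groups, and the part of this in the Ifng value was not tested. Counting Ifng, all 7 cytotoxic genes were lower in sorted shFgf21, where 48.2% of all genes tested were higher. Among the 7 cytotoxic genes 1, not Ifng, was called (edgeR, adjusted p = 0.0296), where 0.079% of all genes tested were. Ifna2 stood between 0.546 and 0.802 CPM in sorted cells and at 0 counts in tumours. Low counts in 1 or more libraries, none above 0.535 CPM, were seen for Ifna1, Ifna4, Ifna5, Ifna7, Ifna14, Ifna15, Ifnab, Ifnz, Ifnl2 and Ifnl3. Siglech, a defining marker of plasmacytoid dendritic cells, which are potent makers of interferon alpha, was at 1.60, 2.27 and 0.442 CPM in sorted shNC and 1.14 and 0.546 CPM in sorted shFgf21, and at 0 counts in the tumour libraries. The full list of 8 markers of these cells did not follow Siglech. It summed to 69.8 to 80.4 CPM in sorted shNC and 55.2 to 87.6 CPM in sorted shFgf21. In tumours the sums were 77.1 to 88.95 CPM in shNC and 77.05 to 85.5 CPM in shFgf21.

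The receptors and the signalling genes were expressed in both kinds of sample, apart from Ifnlr1, which had counts in the sorted shNC libraries alone, at most 0.0711 CPM. Of 15 receptor and signalling genes tested, 12 had a positive log2 fold change in sorted cells and 8 in tumours. Over all genes tested, 48.2% and 48.8% did. In both contrasts 0 of the 15 were called. The receptor chains had log2 fold changes of 0.014 ± 0.11 (Ifnar1), 0.17 ± 0.12 (Ifnar2), 0.071 ± 0.14 (Ifngr1) and 0.11 ± 0.13 (Ifngr2) in sorted cells. In tumours they were -0.067 ± 0.15, -0.13 ± 0.18, 0.30 ± 0.13 and 0.026 ± 0.15 in the same order. The kinases Jak1, Jak2 and Tyk2 and the genes Il10rb, Stat3, Socs1, Socs3, Ptpn2, Ptpn6 and Pias1 lay between -0.17 and 0.39 in sorted cells and between -0.36 and 0.38 in tumours.

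Genes weighted to the interferon gamma arm had other values in the same contrasts. Of 22 such genes, 20 of 21 tested were higher in sorted shFgf21, with a median log2 fold change of 0.28. In tumour shFgf21 21 of 22 were higher, with a median of 0.53. Of all genes tested, 48.2% and 48.8% were higher in these contrasts. The antiviral set had medians of -0.023 and -0.26 in these libraries. Of the 21 interferon gamma weighted genes tested in sorted cells, 1 was called, where 0.079% of all genes were. It was the chemokine gene Cxcl9, which stood at 277, 342 and 287 CPM in control and 652 and 666 CPM in knockdown libraries, a log2 fold change of 1.11 ± 0.11 (edgeR, adjusted p = 0.0296). Unadjusted p was under 0.05 for 11 of the 21 in sorted cells, all higher, where it was for 11.2% of all genes in either direction. After Cxcl9 came Gbp2 at 0.71 ± 0.090 (edgeR, adjusted p = 0.0562) and Ciita at 0.82 ± 0.16 (adjusted p = 0.162). The list summed to 4140 to 4303 CPM in sorted shNC and 5363 to 5801 CPM in sorted shFgf21. Macrophage markers were also higher in sorted shFgf21 (18288 to 19770 against 11480 to 14371 CPM), and their part in these values was not tested. None of the list was called in tumours, where 6 of 22 had an unadjusted p under 0.05, beside 6.22% of all genes; the smallest belonged to Irf1, a transcription factor induced by interferon gamma, at 217, 115 and 180.2 CPM in shNC and 306, 297 and 290.3 CPM in shFgf21 (log2 fold change 0.81 ± 0.23, adjusted p = 0.588). For Irf1 every shFgf21 tumour stood above every shNC tumour. Summed over the list, tumour shNC libraries ran from 1801 to 4026 CPM and tumour shFgf21 libraries from 3683 to 4576 CPM. The difference between the antiviral and the interferon gamma list was not tested.

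**Figure D5:**
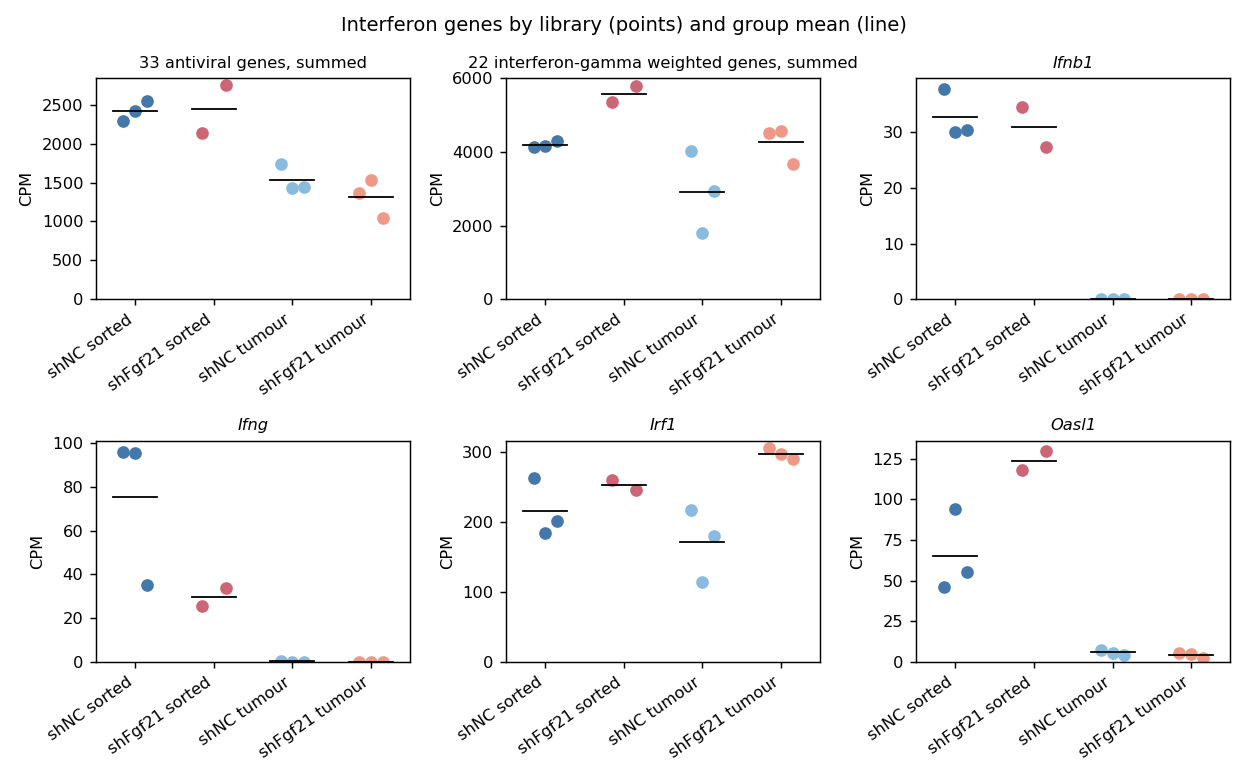
CPM in each library (points) and group mean (line) for the sum of the 33 antiviral genes, the sum of 22 interferon gamma weighted genes, and Ifnb1, Ifng, Irf1 and Oasl1; all axes start at 0. Ifnb1 is at 0 in the 6 tumour libraries, and Irf1 in the 3 shFgf21 tumours lies above the 3 shNC tumours.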

How the data were processed

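RNA from sorted T cells and tumours of MC38-bearing mice was sequenced in bulk, 11 libraries in 4 groups taken from the sample titles. For each gene the authors deposited a raw count, and an FPKM value that is this count over a constant length and over the library's total of listed genes. Per the submitters' processing notes the build was mm10; aligner, counter, annotation release and strandedness were not given in the sources used here. All 33 genes and the lists beside them were chosen with earlier results of these data known.

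The deposited counts were fitted with edgeR 4.0.16 (R 4.3.3). Within each comparison genes were kept by filterByExpr, libraries scaled by TMM and groups compared by the quasi-likelihood F-test, two-sided, adjusted by Benjamini-Hochberg over all genes tested, with a threshold of 0.05. All 33 genes passed the filter in every fit. As SE, the log2 fold change was divided by the root of F. Printed CPM values use TMM factors over the 11 libraries, and FPKM served to rank genes. Alternatives were median-ratio size factors, no filter, a mean of at least 5 CPM, DESeq2 1.42.0, limma 3.58.1 voom with quality weights, all groups in one fit, a replicate block and leaving out each library. The scripts were tested on simulated data. Replicate numbers 1 and 2 occur in both tumour groups; deviations of same-numbered libraries correlated at 0.165 and -0.154 over 14950 genes, so the numbers were not taken to pair. No libraries of one group agreed within sampling noise.

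Genes followed in each library were those with the 5 smallest p-values in the sorted or the tumour contrast and a fixed choice per role; other members are given by range. Of the pathway genes, all ligands with counts, the receptors and up to 5 of each list with the smallest p are named. Promoters are RefSeq windows of GRCm38.p6, and shared 50-base stretches and exon overlaps were computed from GENCODE transcripts of the same genome.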

Additional observations from a re-analysis of the deposited data

How the results depend on the processing

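No result reversed its direction as a call. The knockdown contrasts called 0 of the 33 genes under every alternative except these: DESeq2 called 1 in sorted cells and 1 in tumours, and leaving out libraries gave 0 to 1 in sorted cells, the 1 being without sorted shNC replicate 2. The cause was not tested. Leaving out one library at a time, the median log2 fold change ran from -0.23 to 0.16 in sorted cells, from -0.38 to -0.046 in tumours and from -0.047 to 0.38 for the interaction. The replicate block on numbers 1 and 2 of the tumour libraries gave 0 calls and a median of -0.14, with 12 genes up and 21 down. Sorted against tumour in shNC, the count of 19 ran from 15 to 21 and the median of 0.58 from 0.51 to 0.64. In shFgf21 the count of 21 ran from 9 to 20, was 12 with no filter on low counts, where more genes were tested, and the median of 0.80 ran from 0.63 to 1.02. In sorted cells 11 of the 33 genes, and in tumours 16, kept the sign of their fold change under all alternatives run (11 and 13). Over all genes, the 13 calls in sorted cells became 246 with DESeq2 and between 0 and 34 elsewhere, and the 5 in tumours became 115 with DESeq2, 155 with the replicate block and between 0 and 26 elsewhere; the 1 interaction call became 33 with DESeq2. With 2 or 3 libraries a group, a gene without a call is not shown to be equal between groups.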

Other observations

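Genes that detect nucleic acid upstream of interferon were looked up in the same contrasts. Of 18 sensing and adaptor genes tested, 13 had a positive log2 fold change in sorted shFgf21, where 48.2% of all genes tested did. The median was 0.094, and 0 were called in edgeR. Unadjusted p was under 0.05 for 5, all higher, where it was for 11.2% of all genes in either direction. Tlr9, the endosomal receptor for DNA, was at 5.28, 5.97 and 4.61 CPM in sorted shNC and 11.9 and 14.7 CPM in sorted shFgf21, a log2 fold change of 1.31 ± 0.19 that missed the threshold (edgeR, adjusted p = 0.0824). Tlr7, the endosomal receptor for single-stranded RNA, was at 18.6, 43.6 and 26.99 CPM in shNC and 50.9 and 55.5 CPM in shFgf21 (log2 fold change 0.83 ± 0.29, adjusted p = 0.369). Sting1, the adaptor for cytosolic DNA, was at 47.6, 38.7 and 41.2 CPM in shNC and 57.3 and 58.1 CPM in shFgf21 (0.42 ± 0.12, adjusted p = 0.308). Samhd1 and Irf5 had log2 fold changes of 0.32 ± 0.11 and 0.61 ± 0.22, neither called. The macrophage marker Csf1r was at 403, 513 and 486 CPM in shNC and 657 and 811 CPM in shFgf21 in the same libraries, and its part in these values was not tested. In tumours 8 of 16 tested sensing genes were higher and 8 lower, with 0 called and 0 at an unadjusted p under 0.05.

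A further 55 interferon-induced genes outside the set were followed in the same way. In sorted cells 20 of 54 tested were higher and 34 lower, with a median log2 fold change of -0.038. In tumours 18 of 50 were higher and 32 lower, with a median of -0.13. None was called in edgeR; the smallest p in sorted cells belonged to Ube2l6, the enzyme that passes ISG15 to its ligase, with a log2 fold change of 0.87 ± 0.19 (adjusted p = 0.209), and to Ifitm1, a membrane restriction factor, with -0.80 ± 0.20 (adjusted p = 0.257). In tumours it belonged to Ifi47, an immunity-related GTPase gene, with -1.51 ± 0.41 (adjusted p = 0.570). Oas1g, which shares sequence with Oas1a, had -0.54 ± 0.20 in tumours.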
